A study of Mus musculus with 48 samples.

Results

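Dorsal and ventral CA1 pyramidal cells are the excitatory output neurons at the opposite poles of one hippocampal field, and their transcriptomes were compared here in mouse. The comparison uses every library that the labels give as dorsal or ventral CA1 pyramidal cells, 6 of the 48 libraries of the series with 3 in each group, and all 37620 Ensembl genes of the count table, of which 12149 had enough reads to be tested. The series profiled 16 populations of fluorescent mouse hippocampal neurons that were sorted by hand from microdissected slices. Total RNA was spiked with ERCC control RNAs, amplified as cDNA and sequenced. The groups differ in position along the long axis and in nothing else that the labels name, since strain, age, sex and the transgene that gave the fluorescence are not given there. The design text counts 3 biological replicates per population. Whether each came from its own animal is not stated in the labels. The p-values therefore reflect the spread among these libraries, and that spread may be technical.

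The CA1 field receives input from CA3 and the entorhinal cortex and sends the main output of the hippocampus to the subiculum and beyond. Its dorsal pole is known for cells that code place and for a role in spatial memory. Its ventral pole projects more strongly to the amygdala, the hypothalamus, the nucleus accumbens and the prefrontal cortex and is known for a part in anxiety-related and motivated behaviour.

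Libraries of the groups differed in depth, in spike-in share and in the share of mitochondrial reads. Dorsal libraries held 22.1 to 30.1 M reads in genes (M, mega) and ventral libraries 5.12 to 8.35 M. ERCC reads made up 0.511% to 1.01% in dorsal against 2.72% to 8.29% in ventral libraries. Mitochondrial reads made up 9.41% to 9.73% in dorsal and 11.3% to 12.9% in ventral libraries. With the mitochondrial-genome genes left out of the fit, 1841 genes were called in place of 1837, and 1832 were shared. What else goes with the difference in mitochondrial share was not tested. After dorsal and ventral libraries were thinned to 5.12 M reads each, dorsal libraries showed 14450 to 14760 genes with a read and ventral libraries 14570 to 14970. Both groups carried markers of CA1 pyramidal cells, since Fibcd1 stood at 179.9, 216 and 161 CPM in dorsal and 223, 281 and 404 CPM in ventral libraries and Mpped1 at 156, 146 and 124 CPM in dorsal and 202, 226 and 278 CPM in ventral libraries. Levels are in CPM, reads of a gene per M reads of the library after scaling. The 7 listed CA1 markers summed to 2230 to 2447 CPM in dorsal and 969 to 1036 CPM in ventral libraries. Most of that gap was Wfs1, the wolframin gene, at 1391, 1528 and 1374 CPM in dorsal and 109, 90.2 and 67.3 CPM in ventral libraries. The CA1 marker Pou3f1 had no read in the count table in any of these libraries, but the FPKM table gives it at 24.5 ± 1.49 in dorsal and 9.59 ± 0.158 in ventral cells, so the tables differ for this gene. Below, 2 means joined by "against" are those of dorsal and then ventral libraries, each ± SD over 3 libraries, and log2 fold changes are dorsal minus ventral.

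Several marker lists of other cells stood higher in ventral libraries, and 2 stood higher in dorsal libraries. The 13 GABAergic interneuron markers summed to 0.798 to 2.29 CPM in dorsal and 45.3 to 65.7 CPM in ventral libraries. All 6 that could be tested were called higher in ventral cells, against 7.95% of all genes tested. Gad1, Sst and Npy had no dorsal read and could be tested only through ventral and intermediate reads, so that count is a description. Gad1, which makes GABA, stood at 0, 0 and 0 CPM in dorsal and 3.13, 1.99 and 3.35 CPM in ventral libraries, while Lhx6, Pvalb and Vip had no read in either group. The 6 fibroblast markers summed to 0.199 to 3.97 CPM against 254 to 413 CPM, nearly all of it Dcn. Lum, another proteoglycan of that list, stood at 0, 0 and 0 CPM in dorsal and 8.9, 3.62 and 0.116 CPM in ventral libraries, while Col1a1, Col1a2 and Col3a1 were at 0.251 CPM or less in every library. The 6 oligodendrocyte markers, led by Mbp, summed to 13.8 to 27.2 CPM against 48.6 to 67.2 CPM. The 5 subicular markers summed to 0.135 to 0.444 CPM against 34.0 to 59.1 CPM, mostly Dlk1. The 6 granule cell markers, in dorsal libraries nearly all Lct, summed to 120 to 127 CPM against 4.89 to 15.0 CPM. Prox1 of that list went the other way, at 0, 0 and 0 CPM in dorsal and 2.76, 2.17 and 3.58 CPM in ventral libraries. So did Stxbp6, with means of 0.0625 CPM in dorsal and 4.99 CPM in ventral libraries. Dsp, Glis3 and C1ql2 had at most 4 reads in either group. The 5 choroid plexus markers, led by Kl, summed to 36.3 to 72.9 CPM against 3.01 to 5.25 CPM. The 6 CA2 markers, Pcp4 among them, summed to 23.5 to 40.1 CPM in dorsal and 51.1 to 65.3 CPM in ventral libraries. The 5 CA3 markers, Grik4 among them, summed to 14.6 to 17.8 CPM and 9.24 to 21.5 CPM, and the 7 endothelial and mural markers to 3.20 to 10.1 CPM and 3.44 to 15.0 CPM, with overlap in both. Astrocyte and microglia markers summed to at most 2.19 CPM in any library. What these cell types contribute to the differences below was not tested. In bulk samples fewer cells of a type and less RNA per cell cannot be told apart.

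Of 12149 genes tested by edgeR's quasi-likelihood test, 1837 (15.1%) were called at an adjusted p under 0.05, of which 871 (7.17%) had the higher level in dorsal cells and 966 (7.95%) in ventral cells. Every library of one group lay above every library of the other for 1792 of the called genes and for 31.5% of all genes tested. At least 3-fold differences were found for 685 genes (5.64%), and these were uneven, with 214 higher in dorsal and 471 in ventral cells. At least 10-fold differences were found for 329, 70 toward dorsal and 259 toward ventral cells. By contrast, 809 called genes differed by less than 2-fold, and the median absolute log2 fold change was 1.14 among called genes and 0.381 among all genes tested. No ventral library had a read of 18 of the genes higher in dorsal cells, and no dorsal library had a read of 22 of those higher in ventral cells.

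The balance between the poles depended on abundance. Among 1859 genes with a mean under 3 CPM, 34 were called toward dorsal and 117 toward ventral cells, whereas among 597 genes at 300 CPM or more 187 were called toward dorsal and 92 toward ventral cells. The share of genes called rose across the same range from 8.12% to 46.7%, and the median fold of called genes fell from 45.0 to 1.47. Long noncoding RNAs were called in 14 of 347 cases (4.04%), 7 in each direction. Intermediate CA1 cells, profiled in 3 further libraries, had a mean between the dorsal and ventral means for 780 of the 871 genes higher in dorsal (89.6%) and for 834 of the 966 genes higher in ventral cells (86.3%), against 45.1% of all genes tested. Genes called for a difference between the poles leave more room between them, so those shares are a description. With all libraries at equal depth 1753 genes were called, 1662 of them among the 1837. A fit in which all 48 libraries shared one estimate of the spread called 665.

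**Figure D1:**
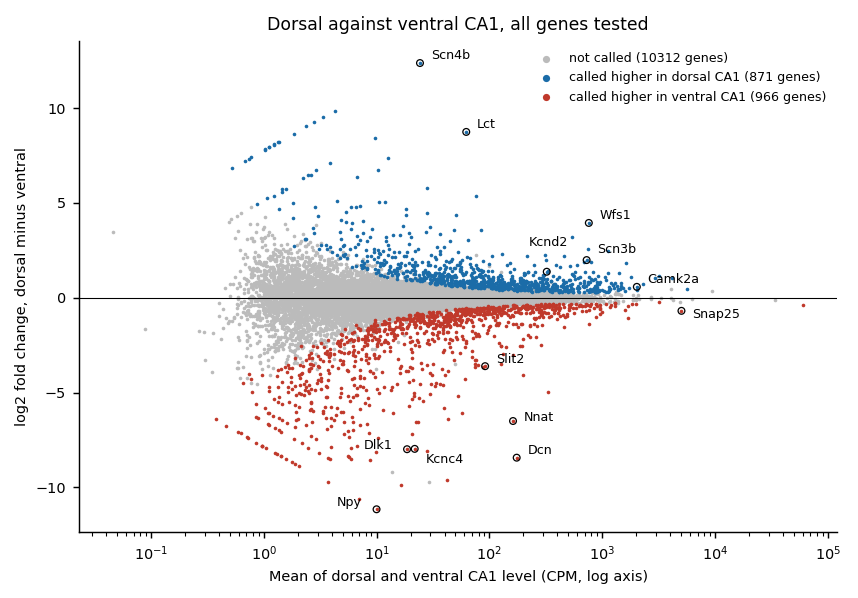
Each point is 1 of 12149 genes, with the mean level of dorsal and ventral libraries on the x axis (log scale, CPM) and the log2 fold change, dorsal minus ventral, on the y axis, and called genes are coloured by direction. Of the genes with at least a 3-fold difference 214 lie above and 471 below the line of no difference.

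The gene with the largest fitted change toward dorsal cells was Scn4b (ENSMUSG00000046480), a beta subunit of voltage-gated sodium channels. It stood at 46, 46.5 and 52.8 CPM in dorsal and 0, 0 and 0 CPM in ventral libraries, at least 115-fold higher in dorsal cells when the ventral level is set to 3 reads per library (adjusted p = 0.00224). Lct, the gene for lactase and 1 of the granule cell markers, stood at 119.9, 126 and 127 CPM in dorsal and 0, 0.181 and 0.578 CPM in ventral libraries, a log2 fold change of 8.75 ± 0.95 (SE) with adjusted p = 0.000232. Robo3, a receptor of the Roundabout family that takes part in axon guidance, stood at 23.7, 14 and 20.6 CPM in dorsal and 0, 0.181 and 0 CPM in ventral libraries, and its 1 ventral read gives a ratio of 423 (95% interval 75.8 to 16730). The groups were far apart for all of these, and intermediate cells, at 1.29, 19.9 and 1 CPM, were nearer the ventral level.

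Matrix and adhesion genes came next. Bcan (brevican, a proteoglycan of the matrix around neurons) stood at 24.9, 21.5 and 28.7 CPM in dorsal and 0.251, 0 and 0.116 CPM in ventral libraries, a ratio of 182 (95% interval 62.3 to 885). Olfm3, which encodes a secreted olfactomedin protein, stood at 57.5, 62.9 and 43.7 CPM in dorsal and 1.63, 0.362 and 0.693 CPM in ventral libraries, a log2 fold change of 5.80 ± 1.01 (SE) with adjusted p = 0.00372. Egfl6, a secreted protein with EGF-like repeats, stood at 20.1, 28.8 and 21 CPM in dorsal and 1.63, 0.181 and 0.116 CPM in ventral libraries, a log2 fold change of 5.04 ± 0.77 (SE) with adjusted p = 0.000102. The lowest dorsal library was above the highest ventral library by a wide margin for each, although single ventral libraries carried most of the ventral reads of Egfl6 and Olfm3. Itga7, an integrin subunit that binds laminin, was also higher in dorsal cells, at a log2 fold change of 6.38, or 10.62 without ventral replicate 2, the only ventral library with reads of it.

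Among the other leading dorsal genes were enzymes, signalling proteins and regulators. Plekhg1, a guanine nucleotide exchange factor for small GTPases, stood at 184, 144 and 118 CPM in dorsal and 6.39, 3.81 and 0.462 CPM in ventral libraries, a log2 fold change of 5.34 ± 0.70 (SE) with adjusted p = 0.00115. Strip2 stood at 101, 94.6 and 92 CPM in dorsal and 4.26, 6.34 and 3 CPM in ventral libraries, a log2 fold change of 4.37 ± 0.38 (SE) with adjusted p = 1.36e-07. Car2, carbonic anhydrase 2, stood at 62.4, 47.2 and 50.9 CPM in dorsal and 2.88, 1.63 and 2.31 CPM in ventral libraries, a log2 fold change of 4.47 ± 0.58 (SE) with adjusted p = 3.42e-05. Dorsal libraries agreed closely for Strip2, while ventral libraries of Plekhg1 were widely spread without reaching the dorsal level. Wnt2, a secreted Wnt ligand (4.77), Htr1f, a serotonin receptor (4.86), Osbpl3, an oxysterol-binding protein (4.68), Myc, the transcription factor (4.50), and Chd7, a chromatin remodeller (4.79), were higher in dorsal cells on the log2 scale given. Dnah6, Stpg1, Sebox and Stac, with log2 fold changes of 5.08, 4.07, 3.97 and 3.95, and the inward rectifier Kcnj2, at 4.38, completed the 20 genes ranked by fold. Kcnj2 lost its call without ventral replicate 2 (adjusted p = 0.0756). Dnah6 was not called in the fit of all 48 libraries.

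The leading ventral genes had no or few reads in dorsal libraries. Npy (ENSMUSG00000029819), the gene for neuropeptide Y, stood at 0, 0 and 0 CPM in dorsal and 20.2, 19.8 and 19.98 CPM in ventral libraries, at least 168-fold higher in ventral cells. Irs4, an insulin receptor substrate, stood at 0, 0 and 0 CPM in dorsal and 15, 12 and 14.8 CPM in ventral libraries, at least 117-fold higher. Igfbp5, a secreted protein that binds insulin-like growth factors, stood at 0, 0 and 0.0902 CPM in dorsal and 35.6, 31.2 and 30.8 CPM in ventral libraries, a ratio of 1249 (95% interval 344 to 10330). All 3 were tight within the ventral group, and intermediate cells, at 16, 10.3 and 6.22 CPM, lay in between. Npy is also 1 of the 13 interneuron markers, whose sums were higher in ventral libraries as given above.

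Several leading ventral genes act in growth factor, hormone and matrix biology. Ndrg1, a gene regulated in differentiation and stress, stood at 0.0798, 0.102 and 0.135 CPM in dorsal and 92.2, 59.4 and 101 CPM in ventral libraries, a log2 fold change of -9.59 ± 1.12 (SE) with adjusted p = 0.000468. Dio3, which encodes the deiodinase that inactivates thyroid hormone, stood at 0.0399, 0.0342 and 0.0451 CPM in dorsal and 14, 9.78 and 28.8 CPM in ventral libraries, a ratio of 478 (95% interval 162 to 2326). Kitl, the ligand of the receptor Kit, stood at 0.0399, 0.0342 and 0 CPM in dorsal and 18.2, 0.906 and 16.8 CPM in ventral libraries, with ventral replicate 2 far below its partners but still above every dorsal library. Dcn, the proteoglycan decorin and 1 of the fibroblast markers, stood at 0.12, 0.0683 and 3.16 CPM in dorsal and 404, 248 and 391 CPM in ventral libraries, a log2 fold change of -8.44 ± 1.71 (SE) with adjusted p = 0.0203. The collagen VI genes Col6a1 and Col6a2 had log2 fold changes of -8.13 and -7.20, and Lgals3bp, a secreted glycoprotein, -8.37. Dcn lost its call without dorsal replicate 1 (adjusted p = 0.0815), dorsal replicate 2 (adjusted p = 0.0729) or ventral replicate 3 (adjusted p = 0.0536). Kitl was not called by limma on FPKM, nor was Dcn with a replicate block.

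Receptors, channels and membrane proteins filled much of the rest of that ranking. Adra1a, an alpha-1 adrenergic receptor, stood at 0.319, 0.205 and 0.0902 CPM in dorsal and 63.7, 45.1 and 59.5 CPM in ventral libraries, a log2 fold change of -8.08 ± 1.19 (SE) with adjusted p = 0.00194. Kctd12b, related to auxiliary subunits of GABA-B receptors, stood at 0, 0.0342 and 0.0451 CPM in dorsal and 13.3, 7.07 and 13.5 CPM in ventral libraries. Syt9, a synaptotagmin, stood at 0.0399, 0 and 0.0902 CPM in dorsal and 13.9, 10.2 and 11.2 CPM in ventral libraries. None of these had more than 0.319 CPM in a dorsal library. Dlk1, a Delta-like membrane protein and 1 of the subicular markers, stood at 0.199, 0.137 and 0.0902 CPM in dorsal and 46, 48.9 and 16.3 CPM in ventral libraries, a log2 fold change of -7.99 ± 0.56 (SE) with adjusted p = 1.1e-08. Pcdh15, a protocadherin known from hair cells, stood at 0.0798, 0.0683 and 0.0451 CPM in dorsal and 12, 10.7 and 11.3 CPM in ventral libraries, a log2 fold change of -7.32 ± 1.09 (SE) with adjusted p = 8.14e-05. Vat1l and Olfm4 had log2 fold changes of -7.39 and -7.84, and Cobl, which nucleates actin filaments, -7.16. Hs3st2, which encodes a heparan sulfate sulfotransferase, was last of the 20 at -7.11. Hs3st2 lost its call without dorsal replicate 1 (adjusted p = 0.118), dorsal replicate 2 (adjusted p = 0.142), dorsal replicate 3 (adjusted p = 0.13) or ventral replicate 3 (adjusted p = 0.0634). Hs3st2 was not called with a replicate block, at equal depth or without a filter on low counts.

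**Figure D2:**
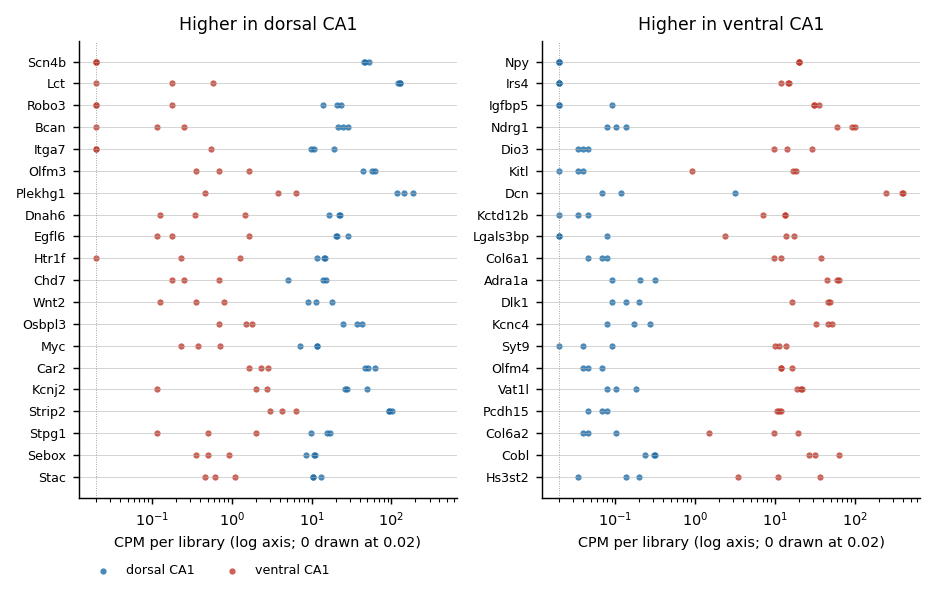
Levels of the genes ranked first by fold in each direction, on a log axis in CPM with 1 point per library for dorsal and ventral CA1 and libraries with no read drawn at 0.02 CPM (dotted line). Dorsal and ventral points do not overlap for any gene shown, which was a condition of the ranking.

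The sequences upstream of 4 genes called in the comparison are shown for orientation: the pair Kcnd2 and Kcnd3, which encode Kv4 channel subunits with opposite gradients, and Lct and Npy, which had few or no reads at one pole. Each is the run of 250 bases before the annotated start in RefSeq on GRCm38.p6, written 5′ to 3′ on the gene's own strand, and taken from a reference of another build than the reads were mapped to. Both strands were searched for 5 motifs, and capitals mark a match. The motif of a TATA box was written TATAAA, that of the factor AP-1 TGANTCA and that of a cyclic AMP response element TGACGT. The E-box searched for was CAGATG, and the site of the Egr factors was GTGGGCG.
Kcnd2 (chr6:21215096-21215345, plus strand): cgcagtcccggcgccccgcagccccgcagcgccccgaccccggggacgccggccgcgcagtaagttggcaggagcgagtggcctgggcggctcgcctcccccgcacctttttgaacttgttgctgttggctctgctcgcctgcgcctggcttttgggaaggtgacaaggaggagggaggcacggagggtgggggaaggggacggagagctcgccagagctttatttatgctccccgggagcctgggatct
Kcnd3 (chr3:105451640-105451889, plus strand): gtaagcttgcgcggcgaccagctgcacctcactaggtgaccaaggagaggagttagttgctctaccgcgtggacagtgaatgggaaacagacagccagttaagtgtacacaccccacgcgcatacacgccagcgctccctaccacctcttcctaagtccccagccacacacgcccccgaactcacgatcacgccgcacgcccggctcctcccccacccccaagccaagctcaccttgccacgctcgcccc
Lct (chr1:128328319-128328568, minus strand): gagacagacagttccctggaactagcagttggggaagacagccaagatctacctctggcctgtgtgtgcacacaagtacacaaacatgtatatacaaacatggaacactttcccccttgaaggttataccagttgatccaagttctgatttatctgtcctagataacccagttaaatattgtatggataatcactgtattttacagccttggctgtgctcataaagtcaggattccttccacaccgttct
Npy (chr6:49822460-49822709, plus strand): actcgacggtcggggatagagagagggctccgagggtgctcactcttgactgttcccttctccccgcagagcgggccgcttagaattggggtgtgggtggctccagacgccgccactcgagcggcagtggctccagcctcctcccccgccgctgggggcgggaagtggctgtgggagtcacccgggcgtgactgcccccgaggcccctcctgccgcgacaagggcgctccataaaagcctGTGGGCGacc
The only match was GTGGGCG in the Npy sequence, which starts 10 bases before the start site, and this motif was in 7.02% of the 32851 upstream sequences of the table. The TATA box was in 12.4% of them, the AP-1 motif in 6.75%, the cyclic AMP response motif in 6.47% and the E-box in 14.4%. GC made up 68.8%, 62.8%, 42.8% and 69.2% of the bases of Kcnd2, Kcnd3, Lct and Npy. The table held an entry for 75.1% of the genes tested, so shares of motifs among called genes were not compared. A match is a run of letters and not a site shown to be bound.

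Genes with the largest differences in absolute level, ranked by FPKM, were a different set and differed by smaller factors. In dorsal cells they included the machinery of calcium signalling. Calm2, a calmodulin gene, stood at 6684, 6971 and 6382 CPM in dorsal and 4236, 4924 and 4659 CPM in ventral libraries, a log2 fold change of 0.48 ± 0.065 (SE) with adjusted p = 3.15e-05. Hpca, the calcium sensor hippocalcin, stood at 2420, 2706 and 2526 CPM in dorsal and 689.7, 788 and 605 CPM in ventral libraries, a log2 fold change of 1.82 ± 0.11 (SE) with adjusted p = 1.22e-09. Ppp3ca, the catalytic subunit of calcineurin, stood at 4442, 4736 and 4169 CPM in dorsal and 1963, 2016 and 1737 CPM in ventral libraries, a log2 fold change of 1.16 ± 0.081 (SE) with adjusted p = 1.09e-08. Its regulatory subunit Ppp3r1 followed at 4064, 3817 and 4186 CPM in dorsal and 1811, 2099 and 1670 CPM in ventral libraries. All ventral libraries of these 4 genes lay below all dorsal ones, which the ranking required. Atp2b1, a calcium pump of the plasma membrane, stood at 5660 ± 346 against 2656 ± 486 CPM, and Cck, the neuropeptide cholecystokinin, at 1091 ± 23.5 against 698 ± 54.2 CPM. Tmsb4x, Fth1 and Actb had log2 fold changes of 0.84, 0.70 and 0.49, but these genes have near-identical copies elsewhere in the genome, so their counts are uncertain. Cck was not called in the fit of all 48 libraries.

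In ventral cells the list was led by Snap25, a SNARE protein of synaptic vesicle fusion, at 3827, 4328 and 3696 CPM in dorsal and 6147, 5560 and 6648 CPM in ventral libraries, a log2 fold change of -0.69 ± 0.088 (SE) with adjusted p = 1.21e-05. Nnat, an imprinted gene for a small membrane protein, was the exception in size, at 4.11, 4.27 and 2.57 CPM in dorsal and 305, 260 and 395 CPM in ventral libraries, a log2 fold change of -6.50 ± 0.46 (SE) with adjusted p = 1.15e-05. Gap43, a protein of growing axons and presynaptic terminals, stood at 83.6, 109 and 80.04 CPM in dorsal and 478, 482 and 494 CPM in ventral libraries, a log2 fold change of -2.48 ± 0.17 (SE) with adjusted p = 1.1e-08. Dorsal and ventral libraries of Nnat and Gap43 were far apart, with intermediate cells at 99.7 and 289.5 CPM. Sv2b, a synaptic vesicle protein, stood at 1112 ± 27.1 against 2237 ± 83.3 CPM, the proton pump subunits Atp6v1a and Atp6v1g2 at 763 ± 46.6 against 1229 ± 124 CPM and 655 ± 24.2 against 831 ± 26.8 CPM, and Ndrg4 at 1267 ± 166 against 1899 ± 101 CPM. Rtn1 and Ywhah were higher in ventral cells at log2 fold changes of -0.32 and -0.41. Sv2b, Atp6v1g2, Rtn1 and Ywhah were not called in the fit of all 48 libraries.

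The remaining results follow 49 lists of neuronal gene families. The lists held 1102 genes, of which 1096 were in the count table and 862 had enough reads to be tested. Of the 862, 422 (49.0%) were called, 174 higher in dorsal and 248 in ventral cells, against 15.1% of all genes tested, and the share called also rose with abundance, as given above. The lists and their members were chosen with earlier results of these data known, so shares called among them are a description and not a test of the families. In 42 of the 49 lists members were called in both directions. The share called was 56.4% for ion channels (29 dorsal, 24 ventral), 58.3% for transmitter receptors (24 and 18), 53.4% for adhesion and guidance molecules (30 and 57), 48.3% for growth factor signalling (11 and 31), 59.1% for extracellular matrix (6 and 20) and 40.8% for transcription factors (24 and 18). The median log2 fold change over all genes tested was -0.00747, and the medians given for lists below are to be read beside it.

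**Figure D3:**
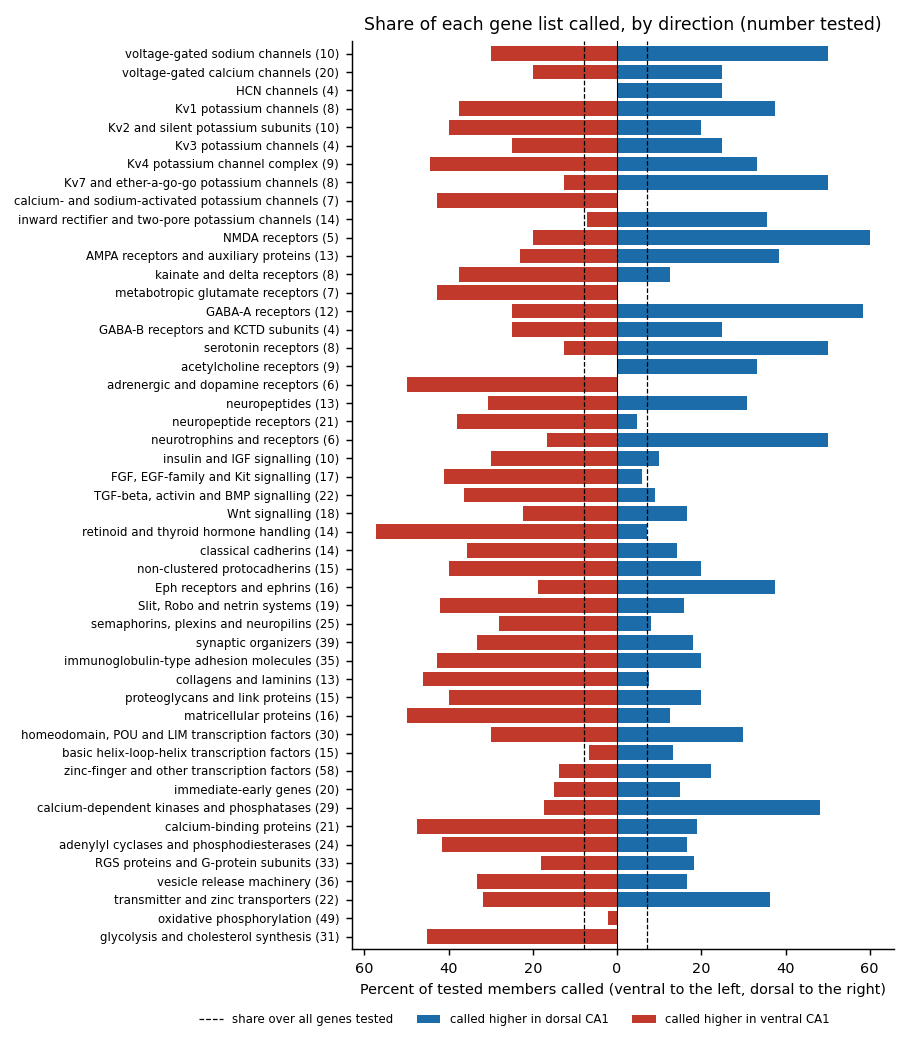
Percent of the tested members of each gene list called higher in dorsal (bars to the right) or in ventral cells (bars to the left), with the number tested beside the name and dashed lines at the shares over all genes tested, 7.17% and 7.95%. In 42 of the 49 lists there are bars on both sides.

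The tests covered 10 of 12 sodium channel genes and called 5 toward dorsal and 3 toward ventral cells, with a median log2 fold change of 0.39. Voltage-gated sodium channels carry the upstroke of the action potential. Beside Scn4b, the beta subunit Scn3b stood at 1194, 1145 and 1171 CPM in dorsal and 249.7, 319 and 282 CPM in ventral libraries, a log2 fold change of 1.99 ± 0.12 (SE) with adjusted p = 1.22e-09. The groups were well apart, with intermediate cells at 759.5 CPM. Among the pore-forming subunits Scn8a was slightly higher in dorsal cells (0.35). Scn9a, at 0.319, 0.546 and 0.496 CPM in dorsal and 4.51, 8.34 and 4.16 CPM in ventral libraries, was higher in ventral cells. Nalcn and Scn2a were also called toward ventral cells, but not in the fit of all 48 libraries (adjusted p = 0.2285 and 0.441). Nalcn lost its call without dorsal replicate 1 (adjusted p = 0.0526) and Scn2a without dorsal replicate 3 (adjusted p = 0.0843). By FPKM, which allows levels of genes to be compared, Scn3b made up 68.4 ± 1.46% of the beta subunit transcripts in dorsal and 50.9 ± 1.96% in ventral cells (SD, n = 3).

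Among 20 calcium channel genes tested of 22 listed, 5 had called differences toward dorsal and 4 toward ventral cells, and the median log2 fold change was 0.10. Cacna1i, a T-type channel subunit, was at 76.4, 89.4 and 82.9 CPM in dorsal and 29.3, 22.1 and 30.6 CPM in ventral libraries, a log2 fold change of 1.54 ± 0.20 (SE) with adjusted p = 1.26e-05. Cacna1a, the P/Q-type subunit that supports transmitter release, was at 162, 138 and 172 CPM in dorsal and 85.1, 95.8 and 69 CPM in ventral libraries, a log2 fold change of 0.86 ± 0.16 (SE) with adjusted p = 0.000649. Both were higher in each dorsal library than in any ventral library, as the choice of members given per library required. In the other direction Cacna1c, an L-type subunit, was at 51.3, 58.3 and 37 CPM in dorsal and 133, 110.3 and 132 CPM in ventral libraries, a log2 fold change of -1.42 ± 0.17 (SE) with adjusted p = 8.4e-06. Cacna1g, another T-type subunit, stood at 22.1, 30.6 and 21.3 CPM in dorsal and 65.2, 60.3 and 64.2 CPM in ventral libraries, a log2 fold change of -1.42 ± 0.22 (SE) with adjusted p = 0.000127. Thus the T-type pair differed in opposite directions. The auxiliary subunits split in the same manner, with Cacna2d3 (0.72), Cacng3 (1.21) and Cacng8 (1.74) higher in dorsal and Cacna2d2 (-6.16) higher in ventral cells. Cacna1i, Cacna1g, Cacng3 and Cacng8 were not called in the fit of all 48 libraries, nor was Cacna2d3 by limma on FPKM.

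The Kv4 complex, which carries the A-type potassium current of pyramidal cell dendrites, differed in its subunits along the axis. Kcnd2 stood at 475, 477 and 458 CPM in dorsal and 178, 192 and 152 CPM in ventral libraries, a log2 fold change of 1.37 ± 0.12 (SE) with adjusted p = 9.15e-08. Kcnd3 stood at 14.8, 9.7 and 13.5 CPM in dorsal and 186, 82.3 and 145 CPM in ventral libraries, a log2 fold change of -3.50 ± 0.36 (SE) with adjusted p = 1.2e-05. By FPKM, Kcnd2 made up 92.7 ± 2.22% of the 3 Kv4 subunits in dorsal and 55.8 ± 10.9% in ventral cells, and Kcnd3 1.87 ± 0.384% and 33 ± 9.39% (SD, n = 3). Auxiliary subunits divided as well: the channel-interacting proteins Kcnip2, at 147 ± 18.3 against 68.3 ± 11.6 CPM, and Kcnip4, at 119 ± 19.5 against 39.4 ± 14.6 CPM, were higher in dorsal cells, while Kcnip3, at 40.4 ± 6.91 against 86.6 ± 6.77 CPM, and the dipeptidyl peptidase-like subunit Dpp10, at 0.399, 0.991 and 0.226 CPM in dorsal and 12.7, 12 and 22.4 CPM in ventral libraries, were higher in ventral cells. In all, 7 of 9 tested members of the complex were called, 3 in dorsal and 4 in ventral direction, the last being Kcnip1 at 0.0925 ± 0.0485 against 2.57 ± 0.825 CPM. Kcnip1 lost its call without dorsal replicate 1 (adjusted p = 0.0805), dorsal replicate 2 (adjusted p = 0.0644) or ventral replicate 2 (adjusted p = 0.0512). Kcnip4, Kcnip3 and Kcnip1 were not called in the fit of all 48 libraries.

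Other families of voltage-gated potassium channels also had members called at each pole. Kcnc4, a Kv3 subunit, stood at 0.0798, 0.171 and 0.271 CPM in dorsal and 51.8, 32.2 and 46 CPM in ventral libraries, a log2 fold change of -7.97 ± 0.58 (SE) with adjusted p = 1.82e-08, and made up 0.136 ± 0.0762% of Kv3 transcripts by FPKM in dorsal and 28.4 ± 2.89% in ventral cells. Kcna6, a Kv1 subunit, stood at 0.199, 0.171 and 0.767 CPM in dorsal and 7.52, 10.5 and 20.8 CPM in ventral libraries, a log2 fold change of -5.14 ± 0.86 (SE) with adjusted p = 0.000264, and made up 0.28 ± 0.0967% of Kv1 transcripts in dorsal and 14.3 ± 4.73% in ventral cells. The Kv1 beta subunits went the other way. Kcnab1 stood at 345, 372 and 339 CPM in dorsal and 79, 89.7 and 55.3 CPM in ventral libraries, a log2 fold change of 2.18 ± 0.21 (SE) with adjusted p = 1.56e-06, and Kcnab2 and Kcnab3 were higher in dorsal cells by 0.77 and 1.90 on the log2 scale. The silent subunits Kcnf1, at 5.7, 5.7 and 5.91 CPM in dorsal and 84.8, 70.8 and 82.2 CPM in ventral libraries, and Kcng1, at 5.82, 4.34 and 5.86 CPM in dorsal and 62.3, 50.2 and 62.6 CPM in ventral libraries, which modify Kv2 channels, were higher in ventral cells, and Kcnb2, a Kv2 subunit, at 68.9 ± 9.2 against 29.1 ± 6.87 CPM, was higher in dorsal cells. The major Kv1 subunits Kcna1 and Kcna4 were not called, at 204 ± 23.3 against 226 ± 33.1 CPM and 126 ± 5.14 against 104 ± 12.3 CPM. Kcnab3 and Kcnb2 were not called in the fit of all 48 libraries.

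**Figure D4:**
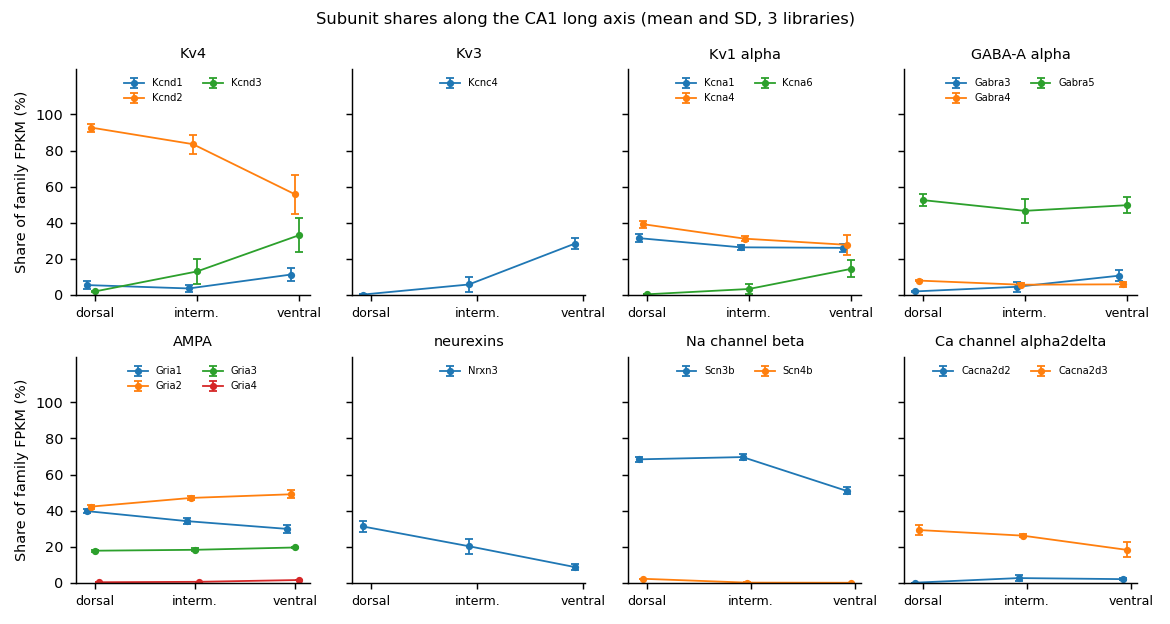
Share of subunits in the summed FPKM of their family, in percent (y axis), where not every member of a family is drawn, with 1 panel per family and points for the mean and SD of 3 libraries in dorsal, intermediate and ventral CA1 joined by lines. Kcnd3, Kcnc4, Kcna6 and Gabra3 take a larger share in ventral cells and Kcnd2, Nrxn3 and Scn3b in dorsal cells.

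Channels that set excitability near rest were called at both poles. Of the 11 Kv7 and ether-a-go-go genes listed, 8 were tested, 4 of which were called toward dorsal and 1 toward ventral cells (median log2 fold change 0.85). Kcnq5 and Kcnq3, which carry the M current, stood at 138, 143 and 139 CPM in dorsal and 42.9, 28.4 and 32.6 CPM in ventral libraries and at 222, 214 and 225 CPM in dorsal and 59, 74.1 and 62.1 CPM in ventral libraries. Kcnh7, an ether-a-go-go related channel, stood at 1318, 1296 and 1232 CPM in dorsal and 254, 223 and 136 CPM in ventral libraries, a log2 fold change of 2.59 ± 0.21 (SE) with adjusted p = 6.87e-06. The groups did not overlap for any of them, which was a condition for giving them per library. Kcnh1, the founding member of the family, was higher in ventral cells at 21.7 ± 4.36 against 53.9 ± 16.3 CPM. Of the inward rectifiers and 2-pore channels, Kcnk2 stood at 59.8 ± 8.04 against 20.1 ± 1.3 CPM, Kcnk1 at 100.2 ± 6.68 against 46.3 ± 6.42 CPM and Kcnj6 at 135 ± 4.97 against 66.5 ± 17.7 CPM, each higher in dorsal cells. Calcium- and sodium-activated channels were called only toward ventral cells, 3 of 7 tested, among them Kcnn3 at 1.69 ± 0.836 against 11 ± 5.89 CPM and Kcnt2 at 83.6 ± 4.27 against 152 ± 31.6 CPM, beside the sodium-activated Kcnt1 at 9.76 ± 3.93 against 22.3 ± 5.87 CPM. Pex5l, an auxiliary protein of pacemaker channels, was slightly higher in dorsal cells (0.45). Kcnt1 lost its call without dorsal replicate 3 (adjusted p = 0.115), ventral replicate 1 (adjusted p = 0.0966) or ventral replicate 2 (adjusted p = 0.068). Kcnk2, Kcnn3, Kcnt2, Kcnt1 and Pex5l were not called in the fit of all 48 libraries, nor was Kcnt1 by limma on FPKM.

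Glutamate receptors differed by subunit. The NMDA receptor subunits Grin1 and Grin2b stood at 381 ± 31.8 against 207 ± 23.4 CPM and 1636 ± 49.4 against 1138 ± 66.8 CPM, both higher in dorsal cells like Grin2a (0.98), while Grin3a, which lowers calcium entry through the receptor, stood at 24.2, 26.8 and 14.2 CPM in dorsal and 242, 225 and 227 CPM in ventral libraries, a log2 fold change of -3.47 ± 0.26 (SE) with adjusted p = 4.18e-08. Of the AMPA receptor subunits, Gria1 stood at 1801, 1819 and 1726 CPM in dorsal and 1231, 1242 and 1023 CPM in ventral libraries, a log2 fold change of 0.55 ± 0.086 (SE) with adjusted p = 0.000127. Gria4 stood at 13, 13.5 and 14.5 CPM in dorsal and 51.4, 58.2 and 60.1 CPM in ventral libraries, a log2 fold change of -2.11 ± 0.26 (SE) with adjusted p = 8.18e-06. Gria2 and Gria3 were not called, at 2828 ± 87.8 against 2608 ± 106 CPM and 788 ± 49.6 against 658 ± 62.2 CPM. By FPKM, Gria1 was 39.7 ± 0.932% of the AMPA subunits in dorsal and 29.9 ± 2.35% in ventral cells, and Gria4 0.292 ± 0.0135% and 1.52 ± 0.26%. The cornichon auxiliary proteins went opposite ways, with Cnih2 at 99.3 ± 7.95 against 47.9 ± 6.04 CPM and Cnih3 at 16.9, 16 and 5.68 CPM in dorsal and 119.9, 144 and 175 CPM in ventral libraries. Likewise Shisa6 (1.35) and Shisa7 (0.62) were higher in dorsal and Shisa9 (-4.72) in ventral cells. Nptx2, a pentraxin that clusters AMPA receptors, stood at 40.4 ± 2.33 against 10.5 ± 1.53 CPM. Grin2b, Cnih2, Shisa9 and Nptx2 were not called in the fit of all 48 libraries.

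Of 8 kainate and delta receptor genes and auxiliary proteins tested, 1 was called toward dorsal and 3 toward ventral cells. Neto1 and Neto2, which are auxiliary subunits of kainate receptors, formed another opposed pair. Neto1 stood at 36.5, 24 and 32.2 CPM in dorsal and 198, 219.8 and 283 CPM in ventral libraries, a log2 fold change of -2.97 ± 0.21 (SE) with adjusted p = 1.24e-08. Neto2 stood at 116, 104 and 169 CPM in dorsal and 45.8, 52.9 and 65.5 CPM in ventral libraries, a log2 fold change of 1.19 ± 0.21 (SE) with adjusted p = 0.000514. Grik3 and Grik4, the latter 1 of the CA3 markers, were both higher in ventral cells, at 0.159 ± 0.0219 against 16.2 ± 6.44 CPM and 1.73 ± 0.742 against 11.9 ± 4.59 CPM. The tests covered 7 of 7 metabotropic glutamate receptor genes and called 0 toward dorsal and 3 toward ventral cells, with a median log2 fold change of -1.12. Grm2 stood at 0.12, 0.102 and 0.18 CPM in dorsal and 17.6, 12.3 and 12.8 CPM in ventral libraries, a log2 fold change of -6.72 ± 0.95 (SE) with adjusted p = 4.19e-05. Grm3 stood at 3.45 ± 1.22 against 18.4 ± 7.43 CPM and Grm8 at 0.216 ± 0.131 against 4.49 ± 2.74 CPM, all of them receptors that couple to inhibitory G proteins. Grm8 lost its call without ventral replicate 2 (adjusted p = 0.0502). Grm3 and Grm8 were not called in the fit of all 48 libraries, nor was Grm8 by limma on FPKM.

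Among 12 GABA-A receptor genes tested of 12 listed, 7 had called differences toward dorsal and 3 toward ventral cells, and the median log2 fold change was 0.34. In the dorsal direction Gabra4 stood at 162 ± 16.4 against 80.7 ± 16.6 CPM and Gabra5, the alpha subunit of extrasynaptic receptors that is abundant in hippocampus, at 639 ± 41.6 against 409 ± 60.4 CPM. Toward ventral cells Gabra3 stood at 33.3, 34.7 and 30.5 CPM in dorsal and 132, 96.2 and 153 CPM in ventral libraries, a log2 fold change of -2.02 ± 0.25 (SE) with adjusted p = 8.4e-06. Gabrb1 stood at 90.1, 73.1 and 76.1 CPM in dorsal and 159, 140.2 and 165 CPM in ventral libraries, a log2 fold change of -1.02 ± 0.14 (SE) with adjusted p = 3.59e-05. Dorsal and ventral libraries did not overlap for these subunits, which was a condition for giving called members in every library. By FPKM, Gabra3 made up 1.87 ± 0.163% of the alpha subunits in dorsal and 10.6 ± 3.12% in ventral cells, while Gabra5 was the most abundant at both poles, at 52.5 ± 3.16% and 49.7 ± 4.31%. Gabbr1, a subunit of the metabotropic GABA-B receptor, stood at 826 ± 92.7 against 514 ± 14.3 CPM. Gabra5 was not called in the fit of all 48 libraries.

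Of the 12 serotonin receptor genes listed, 8 were tested, 4 of which were called toward dorsal and 1 toward ventral cells (median log2 fold change 1.19). Htr1a, an inhibitory receptor, stood at 142, 190.2 and 189 CPM in dorsal and 61.5, 63 and 95 CPM in ventral libraries, a log2 fold change of 1.19 ± 0.19 (SE) with adjusted p = 0.000188, and Htr5a at 19.99 ± 3.07 against 51.8 ± 18.1 CPM in the ventral direction. Htr4 and Htr2a, which are excitatory, stood at 19.3 ± 0.809 against 8.22 ± 3.33 CPM and 13.6 ± 5.61 against 2.85 ± 1.58 CPM. The 3 adrenergic receptors called were all higher in ventral cells, among them Adra2a at 0.359, 0.786 and 0.226 CPM in dorsal and 6.89, 3.62 and 10.9 CPM in ventral libraries, beside Adra1a and Adra2c, the latter at 9.48 ± 5.67 against 24.2 ± 12.3 CPM. The 3 acetylcholine receptors called were all higher in dorsal cells. Chrm3, a muscarinic receptor that couples to Gq, stood at 84.7, 76.3 and 76.7 CPM in dorsal and 16.2, 11.1 and 1.85 CPM in ventral libraries, a log2 fold change of 2.98 ± 0.62 (SE) with adjusted p = 0.00902, and Chrna5, a nicotinic subunit, at 21.7 ± 4.01 against 2.62 ± 0.575 CPM. Chrm1, another muscarinic receptor, had a log2 fold change of 0.34. Ventral libraries of Chrm3 were widely spread but lay under the dorsal level. Htr4 lost its call without dorsal replicate 1 (adjusted p = 0.0975), dorsal replicate 2 (adjusted p = 0.0712), dorsal replicate 3 (adjusted p = 0.0902), ventral replicate 1 (adjusted p = 0.114) or ventral replicate 3 (adjusted p = 0.0709). Htr2a lost its call without dorsal replicate 2 (adjusted p = 0.0716) or ventral replicate 3 (adjusted p = 0.0607). Adra2c lost its call without dorsal replicate 1 (adjusted p = 0.143), dorsal replicate 3 (adjusted p = 0.133), ventral replicate 2 (adjusted p = 0.188) or ventral replicate 3 (adjusted p = 0.0756). Chrm1 lost its call without dorsal replicate 1 (adjusted p = 0.132), ventral replicate 2 (adjusted p = 0.0548) or ventral replicate 3 (adjusted p = 0.0899). Htr1a, Htr5a, Htr4, Htr2a, Adra2c, Chrna5 and Chrm1 were not called in the fit of all 48 libraries, nor were Htr4, Adra2c and Chrm1 by limma on FPKM, nor was Htr4 with a replicate block, nor were Htr4 and Adra2c in a fit of the 6 libraries alone, nor was Chrm1 with library totals in place of TMM.

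Neuropeptide genes were called in both directions, 4 each of 13 tested, whereas 8 of the 9 neuropeptide receptor genes called were higher in ventral cells (21 tested, median log2 fold change -0.71). Penk, the enkephalin precursor, stood at 21.1, 31.3 and 38.7 CPM in dorsal and 9.02, 9.06 and 6.24 CPM in ventral libraries, a log2 fold change of 1.85 ± 0.35 (SE) with adjusted p = 0.000947. Chgb, a granin of secretory granules, stood at 913, 1137 and 1012 CPM in dorsal and 404, 432 and 325 CPM in ventral libraries, a log2 fold change of 1.34 ± 0.11 (SE) with adjusted p = 9.26e-08. Nts, the gene for neurotensin, stood at 0.0798, 0 and 0 CPM in dorsal and 7.77, 3.26 and 6.47 CPM in ventral libraries, and Sst, the gene for somatostatin, at 0, 0 and 0 CPM in dorsal and 0.627, 1.09 and 2.54 CPM in ventral libraries, at least 11.9-fold higher in ventral cells. Nts is among the subicular markers and Sst among the interneuron markers whose sums were higher in ventral libraries. Among receptors Adcyap1r1, for the peptide PACAP, stood at 17.4, 18.3 and 21.7 CPM in dorsal and 91.8, 55.4 and 104 CPM in ventral libraries, a log2 fold change of -2.19 ± 0.25 (SE) with adjusted p = 4.42e-06. Oxtr, for oxytocin, stood at 0.16, 0.307 and 0.676 CPM in dorsal and 15.3, 16.5 and 35.6 CPM in ventral libraries, a log2 fold change of -5.92 ± 0.75 (SE) with adjusted p = 1.26e-05. Oprd1, the delta opioid receptor, stood at 0.239 ± 0.239 against 9.21 ± 0.729 CPM. Sstr4, a somatostatin receptor at 135 ± 13.2 against 76.4 ± 1.08 CPM, was the exception toward dorsal cells. Among other precursors, Scg2, secretogranin II, stood at 235 ± 12.1 against 171 ± 16.9 CPM, and Grp, gastrin-releasing peptide, at 1.01 ± 1.38 against 84.6 ± 16.2 CPM. Scg2 lost its call without dorsal replicate 1 (adjusted p = 0.0773), dorsal replicate 2 (adjusted p = 0.0635) or ventral replicate 3 (adjusted p = 0.0961). Grp lost its call without dorsal replicate 1 (adjusted p = 0.118), dorsal replicate 2 (adjusted p = 0.0575), dorsal replicate 3 (adjusted p = 0.146), ventral replicate 1 (adjusted p = 0.0933), ventral replicate 2 (adjusted p = 0.0878) or ventral replicate 3 (adjusted p = 0.1). Penk, Nts, Sst, Oprd1, Sstr4 and Scg2 were not called in the fit of all 48 libraries, nor was Scg2 by limma on FPKM, nor was Grp with a replicate block, nor was Grp without a filter on low counts.

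Growth factor systems leaned to the ventral side with a few dorsal members. Kit, the receptor for Kitl, stood at 24.2, 20.6 and 23.4 CPM in dorsal and 461, 294 and 357 CPM in ventral libraries, a log2 fold change of -4.09 ± 0.24 (SE) with adjusted p = 3.44e-08, so that ligand and receptor were higher at the same pole. The coreceptors of the GDNF family were opposed. Gfra1 stood at 0.279, 0.546 and 0.586 CPM in dorsal and 34, 31.7 and 66.4 CPM in ventral libraries, a log2 fold change of -6.58 ± 0.68 (SE) with adjusted p = 2.91e-06. Gfra2 stood at 66.6, 65.8 and 69.4 CPM in dorsal and 6.39, 8.88 and 3.81 CPM in ventral libraries, a log2 fold change of 3.36 ± 0.36 (SE) with adjusted p = 2.09e-06. No library of one pole reached the range of the other for either gene, as the choice of members given per library required. Bdnf, the neurotrophin, stood at 110.3, 93.9 and 110.1 CPM in dorsal and 26.8, 57.6 and 35.9 CPM in ventral libraries, and its receptor gene Ntrk2 was not called, at 500.5 ± 109.8 against 379.9 ± 18.5 CPM. In the insulin family, Igfbp4 stood at 106 ± 29.4 against 30.1 ± 7.88 CPM in the dorsal direction against Igfbp5 in the ventral direction, and the receptors Insr and Igf1r were not called, at 105 ± 21.6 against 72.3 ± 9.09 CPM and 16.2 ± 0.798 against 17.9 ± 1.61 CPM. Fgf11, an intracellular FGF homologue, stood at 33.7 ± 2.25 against 116 ± 23.7 CPM. Bdnf and Fgf11 were not called in the fit of all 48 libraries, nor was Kitl by limma on FPKM.

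The tests covered 22 of 32 TGF-beta, activin and BMP genes and called 2 toward dorsal and 8 toward ventral cells, with a median log2 fold change of -0.51. Acvr1c, a type I receptor, stood at 1.91, 3.76 and 4.01 CPM in dorsal and 55.9, 80.8 and 88.3 CPM in ventral libraries, a log2 fold change of -4.59 ± 0.35 (SE) with adjusted p = 2.86e-08, and Bmp2, a BMP ligand, at 0.514 ± 0.422 against 12.1 ± 10.8 CPM. Fstl5, a follistatin-like protein, stood at 1.48 ± 0.288 against 15.4 ± 11.4 CPM, and Lefty1, an inhibitor of Nodal, at 28 ± 8.6 against 7.9 ± 2.4 CPM in the other direction. In the Wnt list Rspo2, which strengthens Wnt signals, stood at 3.23, 4.3 and 1.22 CPM in dorsal and 37.4, 88.4 and 67.8 CPM in ventral libraries, a log2 fold change of -4.52 ± 0.47 (SE) with adjusted p = 2.21e-06. Wnt7a and Wnt7b were higher in ventral cells, with log2 fold changes of -2.95 and -3.00, against Wnt2 in dorsal cells. Dkk3, a secreted protein of the Dickkopf family, was abundant at both poles and slightly higher in dorsal cells, at 1029 ± 28.1 against 710 ± 69.8 CPM. Acvr1c, Bmp2, Lefty1, Wnt7a, Wnt7b and Dkk3 were not called in the fit of all 48 libraries, nor was Wnt7a by limma on FPKM.

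Among 14 retinoid and thyroid hormone genes tested of 23 listed, 1 had called differences toward dorsal and 8 toward ventral cells, and the median log2 fold change was -1.20. Beside Dio3, Crym, which binds thyroid hormone in the cytosol, stood at 92.5, 112 and 80.8 CPM in dorsal and 229.5, 284 and 279.5 CPM in ventral libraries, a log2 fold change of -1.54 ± 0.14 (SE) with adjusted p = 2.03e-07. The receptor Thra was also higher in ventral cells (-0.54). The retinoic acid receptor Rara, at 78.5, 63.9 and 69.1 CPM in dorsal and 29.2, 13.1 and 11.6 CPM in ventral libraries, a log2 fold change of 1.91 ± 0.29 (SE) with adjusted p = 9.89e-05, was the only member of the list higher in dorsal cells. Thra was not called in the fit of all 48 libraries.

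Adhesion molecules were opposed within families. Of the 15 classical cadherin genes listed, 14 were tested, 2 of which were called toward dorsal and 5 toward ventral cells (median log2 fold change -0.25). Cdh10 stood at 97.4 ± 32.4 against 39.9 ± 9.26 CPM, higher in dorsal cells, and Cdh20 at 0.997, 0.137 and 0.135 CPM in dorsal and 27.6, 22.3 and 33.1 CPM in ventral libraries, a log2 fold change of -6.07 ± 0.71 (SE) with adjusted p = 5.12e-06, higher in ventral cells. Among protocadherins Fat3, an atypical cadherin, stood at 954, 866 and 954 CPM in dorsal and 273, 286 and 245 CPM in ventral libraries, a log2 fold change of 1.73 ± 0.16 (SE) with adjusted p = 1.3e-06. Pcdh19 stood at 300.4, 266 and 216 CPM in dorsal and 544, 524 and 549 CPM in ventral libraries, a log2 fold change of -1.11 ± 0.11 (SE) with adjusted p = 7.85e-07, in the opposite direction. The groups were separate for these 4 genes, which was a condition for giving called members in every library. Pcdh7 was likewise higher in ventral cells, at 45.1 ± 10.03 against 173 ± 9.06 CPM, and Pcdh9 and Pcdh20 in dorsal cells (0.69 and 0.99). Cdh10 and Pcdh20 were not called in the fit of all 48 libraries.

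Eph receptors were called only toward dorsal cells and ephrins only toward ventral cells. There were 6 receptors, among them Epha3, Epha4, Epha5, Epha6 and Epha7, and 3 ephrins, of which Efnb2 alone kept its call in every omission of 1 library. Epha4 stood at 1142, 1203 and 976 CPM in dorsal and 552, 570 and 517 CPM in ventral libraries, a log2 fold change of 0.96 ± 0.10 (SE) with adjusted p = 1.47e-06. Epha6 stood at 671, 574 and 578 CPM in dorsal and 212, 201 and 119 CPM in ventral libraries, a log2 fold change of 1.72 ± 0.17 (SE) with adjusted p = 2.52e-06. Epha7 had the greatest log2 fold change of the receptors named, at 3.23. Efnb2, a membrane-bound ligand, stood at 60.6, 62.4 and 36.8 CPM in dorsal and 178, 139.5 and 120.3 CPM in ventral libraries, a log2 fold change of -1.52 ± 0.20 (SE) with adjusted p = 2.06e-05. Eph receptors and ephrins guide axons by contact, and graded pairs of them are known from topographic maps elsewhere in the brain. Epha10 lost its call without any 1 library but ventral replicate 2 (adjusted p = 0.051 to 0.11), Efna3 without any but dorsal replicate 2 (adjusted p = 0.076 to 0.178) and Efnb3 without any (adjusted p = 0.0526 to 0.165). In the fit of all 48 libraries Epha10, Efna3 and Efnb3 were not called either (adjusted p = 0.0883, 0.680 and 0.712). Efna3 and Efnb3 also lost their calls in a fit of the 6 libraries alone, with a replicate block and without a filter on low counts (adjusted p = 0.0501 to 0.0798), Efnb3 and Epha10 at equal depth (adjusted p = 0.0502 and 0.0521), and Efnb3 by limma on FPKM (adjusted p = 0.0602). Epha3 was not called in the fit of all 48 libraries or by limma on FPKM.

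Guidance cues of the Slit and netrin systems were called at both poles. The tests covered 19 of 23 Slit, Robo and netrin genes and called 3 toward dorsal and 8 toward ventral cells, with a median log2 fold change of -0.37. The receptors Robo2, at 212 ± 26.4 against 110.2 ± 12.1 CPM, and Dcc, at 109.8 ± 13.2 against 59 ± 14.1 CPM, were higher in dorsal cells, as was Robo3. The ligand Slit2 stood at 9.65, 18 and 15.5 CPM in dorsal and 141, 162 and 203 CPM in ventral libraries, a log2 fold change of -3.61 ± 0.34 (SE) with adjusted p = 2.21e-06. Ntng1, netrin-G1, stood at 1.83, 3.59 and 3.38 CPM in dorsal and 94.4, 81.7 and 133 CPM in ventral libraries, a log2 fold change of -5.19 ± 0.31 (SE) with adjusted p = 1.22e-09. The netrin receptors Unc5a, Unc5b, Unc5c and Unc5d were all higher in ventral cells, with Unc5d at 0.279, 0.307 and 0.271 CPM in dorsal and 8.15, 6.34 and 13.5 CPM in ventral libraries. Among the semaphorin system the receptors Plxnc1, at 44.4, 33.5 and 49.1 CPM in dorsal and 137, 126 and 176 CPM in ventral libraries, and Plxna3, at 1.84 ± 0.449 against 14.1 ± 1.32 CPM, were higher in ventral cells and Plxna4, at 756 ± 10.9 against 500.5 ± 18.6 CPM, in dorsal cells. Dcc and Unc5a were not called in the fit of all 48 libraries, nor were Dcc and Plxna4 by limma on FPKM.

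Of 39 synaptic organizers and 35 immunoglobulin-type adhesion molecules tested, 20 and 22 were called. Nrxn3, a neurexin and presynaptic partner of neuroligins, stood at 582, 503 and 482 CPM in dorsal and 104, 108 and 97.7 CPM in ventral libraries, a log2 fold change of 2.28 ± 0.13 (SE) with adjusted p = 8.65e-10. By FPKM, Nrxn3 made up 31.2 ± 3.14% of neurexin transcripts in dorsal and 8.7 ± 1.57% in ventral cells. Toward ventral cells Tenm1, a teneurin, stood at 99.7, 89.1 and 86.8 CPM in dorsal and 278, 341 and 427 CPM in ventral libraries, a log2 fold change of -1.98 ± 0.14 (SE) with adjusted p = 1.24e-08, Tenm4 at 143 ± 14.7 against 381 ± 38 CPM, and the receptor phosphatase Ptprf at 4.28 ± 1.41 against 36.7 ± 11.3 CPM. Cadm2 and Cadm1, SynCAM adhesion molecules, were opposed: Cadm2 stood at 1983, 1971 and 1786 CPM in dorsal and 349, 372 and 272 CPM in ventral libraries, a log2 fold change of 2.47 ± 0.13 (SE) with adjusted p = 8.65e-10. Cadm1 stood at 48.5, 72.2 and 49.2 CPM in dorsal and 338, 285 and 334 CPM in ventral libraries, a log2 fold change of -2.56 ± 0.21 (SE) with adjusted p = 1.6e-07. Kirrel3, a molecule of synapse recognition, stood at 2.07, 1.2 and 0.947 CPM in dorsal and 77.2, 81.5 and 73.8 CPM in ventral libraries, a log2 fold change of -5.83 ± 0.39 (SE) with adjusted p = 6.12e-09. Lsamp (1.11) and Cntnap5c (1.82) were higher in dorsal and Chl1 (-1.02), Negr1 (-1.46) and Ncam1 (-0.83) in ventral cells. Ncam1 was not called in the fit of all 48 libraries.

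Extracellular matrix genes were called mainly toward ventral cells, 20 against 6. Among 16 matricellular genes tested of 29 listed, 2 had called differences toward dorsal and 8 toward ventral cells, and the median log2 fold change was -1.36. Sparcl1, a secreted regulator of synapse formation, stood at 58.5, 91.4 and 72.4 CPM in dorsal and 332, 332 and 307 CPM in ventral libraries, a log2 fold change of -2.19 ± 0.15 (SE) with adjusted p = 6.61e-09. Spock1, a testican proteoglycan, stood at 5.82, 5.98 and 6.31 CPM in dorsal and 141, 54.4 and 148 CPM in ventral libraries, a log2 fold change of -4.30 ± 0.34 (SE) with adjusted p = 4.37e-08. Ccn3 stood at 96.5, 107 and 107 CPM in dorsal and 448, 412 and 382 CPM in ventral libraries, a log2 fold change of -2.06 ± 0.20 (SE) with adjusted p = 2.1e-06. Intermediate cells held 379.7 CPM of Sparcl1 and 345 CPM of Ccn3, near the ventral means, and 15.8 CPM of Spock1, near the dorsal mean. Col23a1 and Col25a1, transmembrane collagens, stood at 0.322 ± 0.281 against 12 ± 8.71 CPM and 31 ± 5.42 against 85 ± 23.9 CPM. The dorsal exceptions included matrix components of perineuronal nets and secreted factors. Ncan, neurocan, stood at 582, 578 and 539 CPM in dorsal and 338, 348 and 296 CPM in ventral libraries. Its log2 fold change was 0.73 ± 0.10 (SE) with adjusted p = 2.69e-05, and Bcan, Olfm3 and Egfl6 went the same way. The collagen gene Col11a1 and Agrn, agrin, were also called toward dorsal cells. Col25a1, Col11a1 and Agrn were not called in the fit of all 48 libraries, nor was Agrn by limma on FPKM or with a replicate block.

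Transcription factors were divided. Of the 40 homeodomain, POU and LIM genes listed, 30 were tested, 9 of which were called toward dorsal and 9 toward ventral cells (median log2 fold change 0.10). Satb1, a chromatin organizer, stood at 126, 118 and 104 CPM in dorsal and 13.8, 16.3 and 10.5 CPM in ventral libraries, a log2 fold change of 3.04 ± 0.39 (SE) with adjusted p = 4.64e-05, Zfhx4 at 93.4, 93.3 and 124 CPM in dorsal and 18.1, 17.6 and 32.2 CPM in ventral libraries and the LIM-only factor Lmo3 at 663, 665 and 612 CPM in dorsal and 174, 154 and 271 CPM in ventral libraries. Ldb2 and Lmo4, which take part in LIM complexes, went the other way at 48.2, 30.7 and 35.4 CPM in dorsal and 215, 222 and 208 CPM in ventral libraries and at 101, 99.4 and 78.6 CPM in dorsal and 238, 213 and 246 CPM in ventral libraries. The LIM-only pair was thus opposed, with log2 fold changes of 1.64 and -1.38. Intermediate cells held 15 CPM of Satb1, near the ventral mean. Zfhx4 was not called in the fit of all 48 libraries.

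In the other families, Nr3c2, the mineralocorticoid receptor, stood at 624, 574 and 522 CPM in dorsal and 233, 292 and 259 CPM in ventral libraries, a log2 fold change of 1.07 ± 0.10 (SE) with adjusted p = 5.71e-07, Zbtb20, a factor known from CA1 specification, at 1991, 1978 and 2175 CPM in dorsal and 896, 760.4 and 715 CPM in ventral libraries, and the basic helix-loop-helix factor Neurod6 at 769.7 ± 44.1 against 368 ± 64.2 CPM. Bcl11a and Bcl11b were also higher in dorsal cells (0.61 and 0.90). Toward ventral cells Sox5 stood at 5.42, 5.91 and 5.05 CPM in dorsal and 72.1, 67.8 and 73.2 CPM in ventral libraries, a log2 fold change of -3.76 ± 0.24 (SE) with adjusted p = 4.48e-09, Nr2f2 (COUP-TFII) at 1.44, 0.581 and 1.08 CPM in dorsal and 30.6, 27.5 and 62.4 CPM in ventral libraries, a log2 fold change of -5.33 ± 0.48 (SE) with adjusted p = 2.03e-07. Etv1, an ETS factor, stood at 249, 233 and 244 CPM in dorsal and 549, 652 and 801 CPM in ventral libraries, a log2 fold change of -1.52 ± 0.12 (SE) with adjusted p = 6.24e-08. Dorsal libraries were uniformly low in Sox5 and Nr2f2, and Etv1 was well expressed at both poles. Fezf2 and St18 were higher in ventral cells, with log2 fold changes of -1.86 and -4.45. Of 15 basic helix-loop-helix factors tested, 3 were called: Neurod6, Tcf4 (0.91) and, toward ventral cells, the Notch target Hes1 (-2.40). Hes1 lost its call without dorsal replicate 1 (adjusted p = 0.0577), dorsal replicate 3 (adjusted p = 0.0561) or ventral replicate 3 (adjusted p = 0.0818). Bcl11a, Fezf2 and Hes1 were not called in the fit of all 48 libraries, nor was Zbtb20 by limma on FPKM.

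Genes that respond to activity were called in both directions, 3 each of 20 tested. Egr1 stood at 382, 419 and 719 CPM in dorsal and 117, 148 and 110.1 CPM in ventral libraries, a log2 fold change of 1.97 ± 0.27 (SE) with adjusted p = 0.000865. Nr4a1 stood at 59.6, 67.5 and 97.6 CPM in dorsal and 11.8, 25.4 and 15.2 CPM in ventral libraries, a log2 fold change of 2.06 ± 0.32 (SE) with adjusted p = 0.000178. Dorsal replicate 3 was the highest library for both. Arc, which acts in AMPA receptor endocytosis, stood at 85.3 ± 31.3 against 27.1 ± 9.88 CPM, and Jun and Btg2, called toward ventral cells, at 4.59 ± 3.53 against 75.4 ± 22.7 CPM and 0.623 ± 0.227 against 5.64 ± 5.33 CPM. Fosl2, a Fos-related factor, stood at 9.73, 11 and 21.9 CPM in dorsal and 98.4, 119 and 182 CPM in ventral libraries, a log2 fold change of -3.29 ± 0.58 (SE) with adjusted p = 0.00654. The commonly used activity markers Fos and Npas4 were not called, at 2.35, 3.18 and 3.47 CPM in dorsal and 4.64, 1.99 and 3.35 CPM in ventral libraries and at 35.1, 13.1 and 19.4 CPM in dorsal and 39.2, 9.78 and 5.31 CPM in ventral libraries, and the groups overlapped for both. Arc lost its call without ventral replicate 1 (adjusted p = 0.121) or ventral replicate 3 (adjusted p = 0.0734). Jun lost its call without dorsal replicate 2 (adjusted p = 0.0938), ventral replicate 1 (adjusted p = 0.0532) or ventral replicate 3 (adjusted p = 0.0542). Nr4a1, Arc and Btg2 were not called in the fit of all 48 libraries, nor was Btg2 by limma on FPKM.

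The tests covered 29 of 30 calcium-dependent kinase and phosphatase genes and called 14 toward dorsal and 5 toward ventral cells, with a median log2 fold change of 0.52. Several of the dorsal members are known from long-term potentiation. Prkca, protein kinase C alpha, stood at 1167, 1010 and 1113 CPM in dorsal and 345, 275 and 246 CPM in ventral libraries, a log2 fold change of 1.86 ± 0.12 (SE) with adjusted p = 2.85e-09. Camk2b stood at 1292, 1287 and 1250 CPM in dorsal and 568, 547 and 525 CPM in ventral libraries, a log2 fold change of 1.16 ± 0.093 (SE) with adjusted p = 5.09e-08. Camk2a (0.57), Ppp3cb (0.63), Nrgn (1.00) and Ppp1r1a (1.94) had changes in the same direction. Camk2d, a further CaMKII isoform, went the other way at 7.74, 17 and 10.3 CPM in dorsal and 56.1, 50.9 and 136 CPM in ventral libraries, a log2 fold change of -2.85 ± 0.36 (SE) with adjusted p = 1.21e-05, as did the calmodulin-binding peptide Pcp4, 1 of the CA2 markers, at 0.478, 0.205 and 0.316 CPM in dorsal and 13.9, 9.78 and 22.4 CPM in ventral libraries, a log2 fold change of -5.56 ± 0.70 (SE) with adjusted p = 1.15e-05. Regulators of calcineurin were opposed, with Rcan1 higher in dorsal (1.15) and Rcan2 in ventral cells (-6.78). Of 21 calcium-binding proteins tested, 10 were called toward ventral and 4 toward dorsal cells. Hpcal4 stood at 462, 456 and 394 CPM in dorsal and 1090, 1022 and 1176 CPM in ventral libraries, a log2 fold change of -1.39 ± 0.10 (SE) with adjusted p = 2.38e-08. Necab1 stood at 8.02, 16.7 and 9.11 CPM in dorsal and 148, 125 and 137 CPM in ventral libraries, a log2 fold change of -3.66 ± 0.36 (SE) with adjusted p = 1.84e-05, opposed to Hpca, which like both binds calcium through EF hands. Rcan1 was not called in the fit of all 48 libraries.

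Among 24 genes of cyclic nucleotide signalling tested of 29 listed, 4 had called differences toward dorsal and 10 toward ventral cells, and the median log2 fold change was -0.39. Adcy1, an adenylyl cyclase that calmodulin stimulates, stood at 832, 768 and 803 CPM in dorsal and 298, 222 and 194 CPM in ventral libraries, a log2 fold change of 1.69 ± 0.13 (SE) with adjusted p = 2.92e-08, and Adcy2 and Adcy9 were also higher in dorsal cells (0.84 and 0.72). The phosphodiesterases Pde11a, at 0.598, 0.546 and 0.361 CPM in dorsal and 42.5, 59.2 and 37.4 CPM in ventral libraries, a log2 fold change of -6.56 ± 0.53 (SE) with adjusted p = 5.09e-08, and Pde1a, at 745, 749 and 586 CPM in dorsal and 1196, 1083 and 1360 CPM in ventral libraries, a log2 fold change of -0.87 ± 0.10 (SE) with adjusted p = 5.9e-06, were higher in ventral cells, and Pde1b was higher in dorsal cells (1.56). Among G proteins Gnaq and Gnao1 were higher in dorsal cells (0.53 and 0.38), and Gnal, at 26.7, 29 and 27.6 CPM in dorsal and 94.6, 85 and 163 CPM in ventral libraries, a log2 fold change of -2.10 ± 0.25 (SE) with adjusted p = 6.61e-06, and Gnai1, at 404 ± 7.93 against 613 ± 57 CPM, in ventral cells. Adcy2, Adcy9 and Gnai1 were not called in the fit of all 48 libraries, nor was Gnao1 by limma on FPKM.

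Of the vesicle release machinery 18 of 36 genes tested were called, 6 toward dorsal and 12 toward ventral cells, and of transporters 15 of 22, 8 and 7. Syt7, a calcium sensor of asynchronous release, stood at 257, 257 and 211 CPM in dorsal and 63, 60.7 and 71.6 CPM in ventral libraries, a log2 fold change of 1.83 ± 0.15 (SE) with adjusted p = 4.8e-08. Syt13 stood at 13.8, 31.9 and 20.6 CPM in dorsal and 118, 75.2 and 116 CPM in ventral libraries, a log2 fold change of -2.28 ± 0.25 (SE) with adjusted p = 2.48e-06, in the opposite direction. Unc13a, a priming factor, was higher in dorsal (0.56) and Syn2, a synapsin, in ventral cells, at 317 ± 32.2 against 610.1 ± 72.5 CPM. The sodium-calcium exchanger Slc24a2 was abundant, at 2766, 2348 and 2360 CPM in dorsal and 1283, 1023 and 1038 CPM in ventral libraries, a log2 fold change of 1.10 ± 0.10 (SE) with adjusted p = 2.77e-07, and the exchangers Slc8a2 and Slc8a3 were also higher in dorsal cells (0.89 and 3.30). Slc17a7 and Slc17a6, the vesicular glutamate transporters VGLUT1 and VGLUT2, differed in opposite directions, with Slc17a7 at 554, 572 and 492 CPM in dorsal and 751, 651 and 679 CPM in ventral libraries and Slc17a6 higher in dorsal cells (2.33). Slc8a2, Slc8a3, Slc17a7 and Slc17a6 were not called in the fit of all 48 libraries, nor was Slc17a6 by limma on FPKM.

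The lists of housekeeping genes differed from each other in the share called. Of 49 oxidative phosphorylation genes tested, 1 was called (2.04%), Cyc1, at 66, 73.4 and 58.6 CPM in dorsal and 108, 89.3 and 108 CPM in ventral libraries, and the median log2 fold change was -0.046. Of 31 genes of glycolysis and cholesterol synthesis, 14 were called (45.2%) and all were higher in ventral cells, with a median of -0.34. Over all genes tested 15.1% were called, and 7.95% toward ventral cells. Eno1 stood at 195, 236 and 188 CPM in dorsal and 398, 326 and 385 CPM in ventral libraries, a log2 fold change of -0.90 ± 0.13 (SE) with adjusted p = 4.93e-05, and Pkm at 336 ± 36 against 467 ± 84.1 CPM. Eno1 has processed copies in the genome, so its count is uncertain. Cyc1 and Pkm were not called in the fit of all 48 libraries.

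Libraries that the comparison did not use gave values for the same genes. Pyramidal cells defined by their projection, 3 libraries from dorsal CA1 cells projecting to the postsubiculum and 6 from ventral CA1 cells projecting to the amygdala or the nucleus accumbens, were contrasted in a fit of their own in which 1683 of 13250 genes (12.7%) were called. Of the genes higher in dorsal CA1, 770 of 856 that were tested in both (90.0%) had the same sign there and 387 (45.2%) were called in the same direction, with 8 called in the opposite direction. Of the genes higher in ventral CA1, 817 of 920 (88.8%) had the same sign and 433 (47.1%) were called alike, with 4 opposite. Genes not called in the comparison of dorsal and ventral CA1 had the same sign in 60.5% of cases and were called alike in 5.84%. Of all genes tested in the projection-defined cells, 5.78% were called toward dorsal and 6.92% toward ventral cells. Across 11852 genes the log2 fold changes had a Pearson correlation of 0.58, where genes are not independent replicates. The projections differ as well as the position, and the libraries varied more, with a biological coefficient of variation of 0.805 against 0.359.

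Genes from most of the families above were called in the projection-defined cells. Log2 fold changes there were 3.54 for Cadm2, 1.90 for Nrxn3, 2.65 for Epha6, 1.77 for Kcnd2 and 1.90 for Scn3b in the dorsal direction. In the ventral direction they were -4.94 for Kit, -5.65 for Ntng1, -3.59 for Grin3a, -7.37 for Kcnc4 and -3.99 for Neto1. Others were not called there. These included Npy (log2 fold change -1.70, adjusted p = 0.731), Dlk1 (log2 fold change 0.72, adjusted p = 0.628), Adra1a (log2 fold change -1.57, adjusted p = 0.66), Htr1f (log2 fold change 1.87, adjusted p = 0.42), Necab1 (log2 fold change 0.51, adjusted p = 0.803) and Cck (log2 fold change -0.016, adjusted p = 0.974), and Irs4 and Nts had too few reads to be tested. Nptx2 was called in the opposite direction (log2 fold change -1.93, adjusted p = 0.0324).

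The long axis was also sampled in CA3 pyramidal cells and in granule cells of the dentate gyrus (DG), 3 dorsal and 3 ventral libraries each. In CA3, 773 of 15549 genes (4.97%) were called, 2.5% with the higher level in dorsal and 2.48% in ventral cells. In DG 3010 (19.4%) were called, 8.71% toward dorsal and 10.6% toward ventral cells. Genes higher in dorsal CA1 had the same sign in 70.3% of cases in CA3 and 60.5% in DG, and genes higher in ventral CA1 in 66.9% and 67.7%, against 58.2% and 54.8% of all genes tested in both. These shares can include genes with few or no reads in CA3 or DG, so they are a description. In CA3, 151 of the genes higher in dorsal CA1 and 169 of those higher in ventral CA1 were called in the same direction, and 42 and 41 in the opposite direction. In DG the counts were 243 and 282 in the same direction and 89 and 67 in the opposite direction. Across all genes tested in both, the log2 fold changes had a Pearson correlation with those of CA1 of 0.254 in CA3 and 0.16 in DG. Tested directly, the long-axis difference was not the same in CA1 and CA3 for 547 genes (3.52%) and in CA1 and DG for 1510 (9.71%).

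A small set differed the same way in CA1, in projection-defined CA1 cells, in CA3 and in DG. It held 45 of the 856 genes higher in dorsal CA1 and 44 of the 920 higher in ventral CA1 that were tested in all of these. Of the same 856 and 920 genes, 117 and 97 were called in the opposite direction in CA3 or DG. The dorsal set held Lct, the Eph receptors Epha4, Epha5 and Epha7, the channel genes Kcnd2 and Scn8a, the calcium signalling genes Camk2a, Camk1d and Ppp3ca, Chgb, Tcf4, Syt7 and Plcb1. The ventral set held Oxtr, Adcyap1r1, Adra2a, Cadm1, Kcnd3 and Dpp10 of the Kv4 complex, the transcription factors Etv1 and Nr2f2, the thyroid hormone genes Dio3 and Crym, Gfra1, Tenm4, Negr1, Plxnc1 and Pcdh15. The Kv4 pair can be followed across regions: Kcnd2 had log2 fold changes of 1.37 in CA1, 1.10 in CA3 and 0.59 in DG, and Kcnd3 -3.50, -1.21 and -1.53. Dio3 had -8.56, -4.88 and -3.80, and Oxtr -5.92, -2.72 and -7.92. CA1 values in these sets also come from the libraries that chose the genes.

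**Figure D5:**
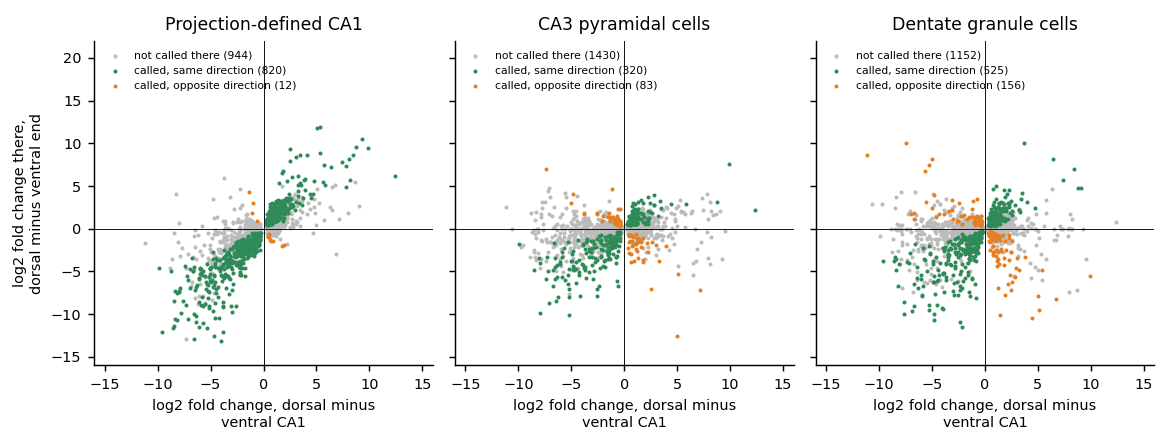
Log2 fold changes of the genes called in dorsal against ventral CA1 (x axis) set against those in projection-defined CA1, CA3 and DG (y axis, 1 panel each), with genes coloured by whether they were called there and in which direction. Of genes higher in dorsal CA1, 90.0% lie above 0 in projection-defined cells, 70.3% in CA3 and 60.5% in DG.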

How the data were processed

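The values are read counts per Ensembl gene and 1 FPKM value per gene and library (reads per kilobase of transcript, scaled to library size). The authors deposited both tables, a table of counts and a Cuffdiff table of FPKM. Builds NCBIM37 and mm9 and the tools HTSeq, DESeq2, Cuffdiff 2.1.1 and TopHat2 2.0.6 appear in the submitters' processing notes, with no role given for each. The strand used in counting is not given in the sources used here. Counts were tested with edgeR 4.0.16 in R 4.3.3 (quasi-likelihood F test, robust dispersion, TMM scaling, filterByExpr) in 1 fit of 9 libraries from dorsal, intermediate and ventral CA1. The CA3 and DG contrasts came from 1 fit of 18 libraries, those of dorsal and ventral CA1, CA3 and DG. Benjamini-Hochberg adjustment covered all genes tested, and a gene was called under 0.05. ERCC sequences (92) and summary lines (5) were left out. CPM used TMM over all 48 libraries. FPKM served to compare levels between genes. A group with no read was set to 3 reads per library, and ratios resting on 1 to 3 reads carry a 95% exact interval. Both cover counting error only, since amplified reads are not independent molecules. Columns of the count table are numbered 1 to 3 and the library titles from 0, so columns were assigned to groups and not to single titles. Ranked genes were called, reached 10 CPM in the higher group, separated all libraries and had proper names, with ribosomal, mitochondrial, small RNA and sex-linked genes left out; the first 20 per direction by log2 fold change and the first 10 by FPKM difference were taken. In each list the 3 called members per direction with the smallest p among those that separated all libraries were eligible to be given in every library. Separation was thus a condition for ranked genes and for these members, and not a result about them. Members and lists were chosen with earlier results of these data known. The tests were checked on simulated counts. Alternatives were another tool, scaling, filter, depth, set of libraries and unit, a replicate block and the omission of each library.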

Additional observations from a re-analysis of the deposited data

Results flagged for a closer look

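The long-axis difference was tested against that of the other fields with an interaction term in edgeR over 18 libraries. It differed between CA1 and CA3 for 547 of 15549 genes (3.52%) and between CA1 and DG for 1510 (9.71%). Among the 267 genes eligible to be given per library, 105 differed from CA3 and 137 from DG, and 27 and 39 of them were called in the opposite direction there. These genes were chosen for their difference in the same dorsal and ventral CA1 libraries that the interaction used. Their counts are therefore a description and cannot be set against the shares over all genes. The genes named in the report that were opposite in both fields, or opposite in 1 field and ranked by fold or level, follow, with log2 fold changes of dorsal minus ventral cells.

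Genes higher in dorsal CA1 and higher in ventral cells of both other fields were Cacna1i, Kcnh7, Htr1a, Pex5l and Lsamp. Cacna1i, 1.54 in CA1, -2.16 in CA3 and -2.41 in DG, differed by 3.73 from CA3 (adjusted p = 3.19e-05) and 3.98 from DG (adjusted p = 1.97e-05). Kcnh7, 2.59 in CA1, -1.56 in CA3 and -1.39 in DG, differed by 4.17 from CA3 (adjusted p = 3.48e-06) and 4.00 from DG (adjusted p = 3.67e-06). Htr1a, 1.19 in CA1, -2.56 in CA3 and -3.56 in DG, differed by 3.77 from CA3 (adjusted p = 0.000642) and 4.77 from DG (adjusted p = 5.17e-05). Pex5l, 0.45 in CA1, -2.85 in CA3 and -1.56 in DG, differed by 3.32 from CA3 (adjusted p = 1.22e-06) and 2.04 from DG (adjusted p = 0.000214). Lsamp, 1.11 in CA1, -0.59 in CA3 and -1.12 in DG, differed by 1.73 from CA3 (adjusted p = 1.49e-06) and 2.25 from DG (adjusted p = 2.57e-08). Genes opposite in 1 field were Dnah6, Egfl6, Car2, Tmsb4x and Wfs1. Dnah6, 5.08 in CA1, -5.31 in CA3 and -1.05 in DG, differed by 10.32 from CA3 (adjusted p = 0.00172). Wfs1, 3.94 in CA1, -1.99 in CA3 and -0.23 in DG, differed by 5.96 from CA3 (adjusted p = 0.000162). Tmsb4x, 0.84 in CA1, -1.02 in CA3 and 0.62 in DG, differed by 1.88 from CA3 (adjusted p = 1.22e-06). Egfl6, 5.04 in CA1, -4.36 in CA3 and -7.91 in DG, differed by 13.01 from DG (adjusted p = 0.000665). Car2, 4.47 in CA1, -1.07 in CA3 and -10.47 in DG, differed by 14.97 from DG (adjusted p = 1.86e-08).

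Genes higher in ventral CA1 and higher in dorsal cells of both other fields were Kcnt2, Itpr1, which encodes a calcium release channel of the endoplasmic reticulum, and Slc17a7. Kcnt2, -0.92 in CA1, 1.19 in CA3 and 1.35 in DG, differed by -2.08 from CA3 (adjusted p = 0.000251) and -2.25 from DG (adjusted p = 9.45e-05). Itpr1, -0.56 in CA1, 2.36 in CA3 and 1.21 in DG, differed by -2.90 from CA3 (adjusted p = 1.22e-06) and -1.75 from DG (adjusted p = 0.000277). Between dorsal and ventral CA1, Itpr1 was not called in the fit of all 48 libraries (adjusted p = 0.3485) or by limma on FPKM (adjusted p = 0.0508). Slc17a7, -0.43 in CA1, 0.78 in CA3 and 0.49 in DG, differed by -1.18 from CA3 (adjusted p = 0.00355) and -0.90 from DG (adjusted p = 0.0169). Npy, -11.16 in CA1, 2.53 in CA3 and 8.65 in DG, differed by -20.10 from DG (adjusted p = 0.000114), although no dorsal CA1 library had a read of it, so that the fitted size is no bound. Snap25, -0.69 in CA1, 1.28 in CA3 and -0.01 in DG, differed by -1.95 from CA3 (adjusted p = 1.57e-06). Ndrg4, -0.65 in CA1, 0.43 in CA3 and -0.06 in DG, differed by -1.05 from CA3 (adjusted p = 0.000553). Ywhah, -0.41 in CA1, 0.57 in CA3 and 0.15 in DG, differed by -0.96 from CA3 (adjusted p = 0.00169). With 3 libraries per group, no group was large enough to look for single libraries that stand apart.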

How the results depend on the processing

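The counts of called genes were stable in scale under most alternatives. With 6 libraries only, library totals, other size factors, equal depth, no filter, the mitochondrial genome left out, DESeq2 or limma on FPKM, 1335 to 2401 genes were called in place of 1837, and dorsal genes made up 42.7% to 47.6% of them. Of the 1837 genes DESeq2 called 1820 and limma on FPKM 1192. The fit of all 48 libraries called 665 genes, 309 higher in dorsal and 356 in ventral cells, 389 of them at least 3-fold, and 629 of the 665 were among the 1837. A filter of at least 10 CPM in 3 libraries left 376 genes with at least a 3-fold difference in place of 685, since fewer genes were tested. Leaving out 1 library gave 1361 to 1670 called genes, 640 to 808 higher in dorsal, 721 to 873 higher in ventral cells and 588 to 700 at least 3-fold. In projection-defined CA1 the range was 968 to 1919, with 968, 996 and 1046 without postsubiculum-projecting replicate 1, 2 or 3, in CA3 436 to 659, with 454 and 436 without dorsal replicate 2 or 3 and 452 without ventral replicate 2, and in DG 2002 to 3419. DESeq2 called 2746 genes in projection-defined CA1 and 1173 in CA3. Deviations from the group means had correlations of -0.0527 to -0.00039 between same-numbered libraries of the 3 CA1 groups. Between differently numbered libraries they were -0.0516 to 0.0671. With 3 libraries per group these values cannot decide whether the replicate numbers pair the libraries. With the replicate block 1692 genes were called, 1648 of them among the 1837. Of 453 genes recomputed (ranked genes and called list members), 329 kept their call in all 6 omissions and 124 lost it in at least 1, 237 lost it in the fit of all 48 libraries and 87 by limma on FPKM. Gabrb2 reversed there, with a log2 fold change of -0.0231 (adjusted p = 0.946). The causes were not tested. Of 1859 genes under 3 CPM, 151 were called, and the limit that ventral depth sets there was not tested.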

Other observations

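The genes that part the poles can be followed in the CA1 groups that the labels define without a position on the long axis, as means ± SD over 3 libraries in CPM. Wfs1, at 1431 ± 84.3 in dorsal and 89 ± 21.1 in ventral CA1, stood at 1624 ± 146 in proximal, 1467 ± 126 in distal, 1207 ± 108 in superficial and 812 ± 88.7 in deep cells. Cadm2 stood at 1884 ± 252, 2321 ± 149, 1961 ± 112 and 1592 ± 91.5 in the same order. Kcnd3, the ventral Kv4 subunit, stood at 6.62 ± 4.41, 14.6 ± 12.2, 10.01 ± 3.99 and 26.1 ± 13, and Grin3a at 18.4 ± 12.7, 5.9 ± 0.451, 17.8 ± 3.1 and 17.2 ± 10.2. All 4 groups were thus nearer the dorsal than the ventral mean for these genes. Sox5 was less clear, at 7.43 ± 1.83, 2.74 ± 2.81, 11.7 ± 4.62 and 35.7 ± 22.9, where the SD of deep cells is wide. Lct stood at 161 ± 10.8 in superficial and 28.2 ± 5.63 in deep cells.

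Of the ventral genes, 3 are followed here in the groups defined by projection, chosen after their values were seen. Kit stood at 506 ± 77.3 in amygdala-projecting and 382 ± 108 in accumbens-projecting cells, against 14.6 ± 6.05 in postsubiculum-projecting cells, and Ntng1 at 133 ± 21.1, 114 ± 41.1 and 2.5 ± 1.44. Dcn stood at 139 ± 95.5, 351 ± 168 and 0.674 ± 0.837, so the gene was read in ventral libraries that were sorted separately from those compared here.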
